A study of Homo sapiens with 9 samples.

Results

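The proliferation marker genes described here are MKI67, TOP2A, HMMR, TPX2, ASPM, CENPF, CENPA, DLGAP5, UBE2C and BIRC5. They are the 10 rows, of 61487 genes in the count table, whose stable Ensembl ID maps to these symbols, a rule that uses no expression value, although the symbols were chosen with earlier results of these data known. RNA-Seq was performed on OVCAR4, an established human high-grade serous ovarian cancer cell line labelled WT in genotype, in 3 groups of 3 libraries. The inhibitor-treated group held platinum-resistant (Pt-resistant) OVCAR4 cells given 5 µM of the PRMT5 inhibitor EPZ015666 for 5 days. The Pt-resistant group held the same resistant line, which the study derived by continuous Pt treatment, under DMSO. For OVCAR4 the paper's methods name cisplatin as the Pt drug, while some of its figure legends call the cells carboplatin-resistant. The naive group held the parental OVCAR4 cells under DMSO. No naive cells with inhibitor are among the samples, so the inhibitor was compared only within the resistant line. All 10 genes passed the filter on low counts, with between 319 (CENPA) and 11386 (TOP2A) counts per library.

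These genes are transcribed mainly late in the cell cycle, so their mRNA rises in cells that pass through G2 and mitosis and is low in resting cells. Their proteins act at different places in a dividing cell: on the chromosome surface, at the centromere and kinetochore, on the spindle, and in the machinery that ends mitosis. Transcription of many late cell cycle genes is switched off in resting cells by the DREAM complex and switched on in dividing cells by MYBL2 and FOXM1 on the same MuvB core. LIN54, a MuvB subunit, binds a short element called the CHR (cell cycle genes homology region), and NF-Y binds CCAAT boxes near it. Antibodies to Ki-67, the product of MKI67, are used in pathology to count cycling tumor cells.

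The promoters of these genes were read from RefSeq (GRCh38.p14), in windows of 250 bases before and 50 bases after the start site. Entries were found for 7 of the 10 genes, and TPX2, UBE2C and BIRC5 are named only. Both strands were searched for TTTGAA, a common form of the CHR, and for CCAAT, and the 2 words may overlap. TTTGAA was found in all 7 promoters, in 15.2% of all 35116 promoters in the table and in 10.4% of the 15975 promoters of genes tested here. At least 2 CCAAT words were found in all 7 as well, and in 10.8% of all promoters. Between 100 bases before and 50 bases after the start site, 5 of the 7 held TTTGAA, against 6.84% of all promoters. These 5 windows follow, since they hold the hexamer close to the start site, with every TTTGAA and CCAAT on either strand in capitals and overlapping matches run together. The coordinates are chr10:128126374-128126523 on the minus strand for MKI67, chr5:163460532-163460681 on the plus strand for HMMR, chr1:214603095-214603244 on the plus strand for CENPF, chr2:26785956-26786105 on the plus strand for CENPA, and chr14:55191536-55191685 on the minus strand for DLGAP5.
MKI67: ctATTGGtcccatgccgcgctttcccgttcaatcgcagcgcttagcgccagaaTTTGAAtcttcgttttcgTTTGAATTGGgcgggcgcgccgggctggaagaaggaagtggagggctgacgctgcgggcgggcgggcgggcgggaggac
HMMR: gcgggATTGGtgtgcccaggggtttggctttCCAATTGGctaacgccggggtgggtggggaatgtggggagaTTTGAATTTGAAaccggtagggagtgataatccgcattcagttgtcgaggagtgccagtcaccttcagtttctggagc
CENPF: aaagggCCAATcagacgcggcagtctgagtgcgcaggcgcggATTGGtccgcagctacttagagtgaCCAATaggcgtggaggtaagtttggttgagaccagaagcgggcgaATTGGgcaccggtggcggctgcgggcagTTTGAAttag
CENPA: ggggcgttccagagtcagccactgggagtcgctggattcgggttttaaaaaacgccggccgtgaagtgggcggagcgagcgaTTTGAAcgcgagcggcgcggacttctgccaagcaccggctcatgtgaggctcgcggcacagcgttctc
DLGAP5: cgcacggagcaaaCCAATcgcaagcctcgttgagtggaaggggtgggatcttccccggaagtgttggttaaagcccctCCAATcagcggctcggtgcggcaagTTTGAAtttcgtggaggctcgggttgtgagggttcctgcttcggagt

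In MKI67 the hexamer began 47 and 29 bases before the start site, and in HMMR 28 and 22 bases before it, as a direct repeat. In CENPA it began 18 bases before the start site, in DLGAP5 at base 4 after it and in CENPF at base 41. CENPA held no CCAAT word in its printed window. TOP2A and ASPM carried the hexamer farther upstream. Of 57 promoter entries of other G2/M and mitosis genes, 34 (59.6%) held TTTGAA, and of 46 entries of G1/S and replication genes 1 (2.17%) held it. At least 2 CCAAT words were found in similar shares of these lists, 36.8% of the G2/M and mitosis entries and 32.6% of the G1/S and replication entries. These matches are words in a sequence, and no binding was measured here.

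**Figure D1:**
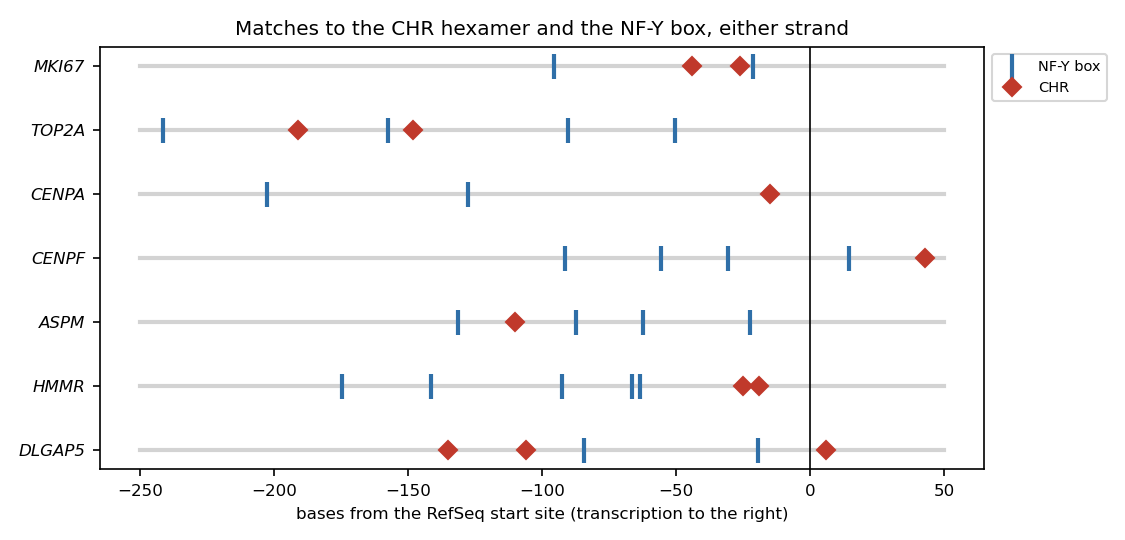
Positions of TTTGAA (diamonds, CHR) and CCAAT (bars, NF-Y box) on either strand in the RefSeq promoters of 7 proliferation marker genes, in bases from the start site at 0. All 7 hold at least 1 diamond and 2 bars, and the diamonds of MKI67, HMMR and CENPA lie within 50 bases before the start site.

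Library totals ran from 14320929 to 19114811 counts. The labelled cell type was checked first: of 11 serous ovarian epithelium markers 10 were tested, with PAX8 at 144 ± 9.92, 115 ± 7.29 and 134 ± 12.2 CPM (counts relative to the TMM-scaled library size) in inhibitor-treated, Pt-resistant and naive cells (SD, n = 3 each), whereas WT1 was too low to test. Of the 10, 3 were higher and 6 lower with the inhibitor (31.9% and 30.5% of all tested genes). In Pt-resistant against naive cells 1 was higher and 5 were lower (29.8% and 29.4% of all tested genes). In inhibitor-treated against naive cells 8 were lower (31.2% of all tested genes). EPCAM, the epithelial adhesion molecule, was at 247 ± 2.96 CPM in inhibitor-treated, 330.5 ± 24.1 CPM in Pt-resistant and 519 ± 54.5 CPM in naive cells, and the part of the epithelial markers in the results was not tested. PRMT5 itself averaged 117 ± 10.6 CPM in inhibitor-treated, 117 ± 10.1 CPM in Pt-resistant and 121 ± 1.48 CPM in naive cells. The mRNA of neither PRMT5 nor KEAP1 passed the test in any comparison. Mitochondrially encoded mRNAs took 6.26% to 8.31% of counts in inhibitor-treated libraries, 4.45% to 5.19% in Pt-resistant and 5.97% to 7.82% in naive libraries, with the Pt-resistant libraries lowest, as for most of the marker genes. In exact two-sided permutation tests over 3 against 3 libraries, this share gave p = 0.1 for inhibitor-treated against Pt-resistant, p = 0.1 for Pt-resistant against naive and p = 0.8 for inhibitor-treated against naive, where 0.1 is the smallest p the design allows. Its part in the results was not tested. Among immune markers, PTPRC was at 0.834 to 1.47 CPM in inhibitor-treated, 0 to 0.0601 CPM in Pt-resistant and 0.206 to 0.398 CPM in naive libraries, and CSF1R at 2.07 to 2.87, 0.160 to 0.260 and 0.511 to 1.32 CPM in the same groups. CD3E and MS4A1 had 0 to 2 counts per library over all 3 groups and did not pass the filter on low counts. The part of the immune markers in the results was not tested either. The fibroblast and endothelium list, with 5 of 9 genes tested, summed to 94.4 to 110 CPM in inhibitor-treated, 127 to 133 CPM in Pt-resistant and 143 to 161 CPM in naive libraries. Most of this sum came from PECAM1 and CDH5. COL1A1, a fibroblast collagen, was at 10.2 ± 1.78 CPM in inhibitor-treated, 3.83 ± 0.365 CPM in Pt-resistant and 6.94 ± 1.29 CPM in naive cells, the same order as the summed marker genes, and its part in the results was not tested.

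Together the 10 genes summed to 2052 to 2266 CPM in inhibitor-treated libraries, 1172 to 1243 CPM in Pt-resistant libraries and 1491 to 1578 CPM in naive libraries. The 3 ranges did not overlap, with the inhibitor-treated libraries highest and the Pt-resistant libraries lowest. In bulk RNA, a smaller share of dividing cells and less of these mRNAs per dividing cell cannot be told apart. Growth and cell cycle phase were not analysed here. In a separate assay for cell cycle arrest, with other doses and a shorter treatment, the paper reports slightly more PRMT5-inhibited cells in S phase. It names DNA damage from the inhibitor as a potential reason. The paper also reports lower viability of naive and resistant cells at several combined doses of inhibitor and Pt.

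**Figure D2:**
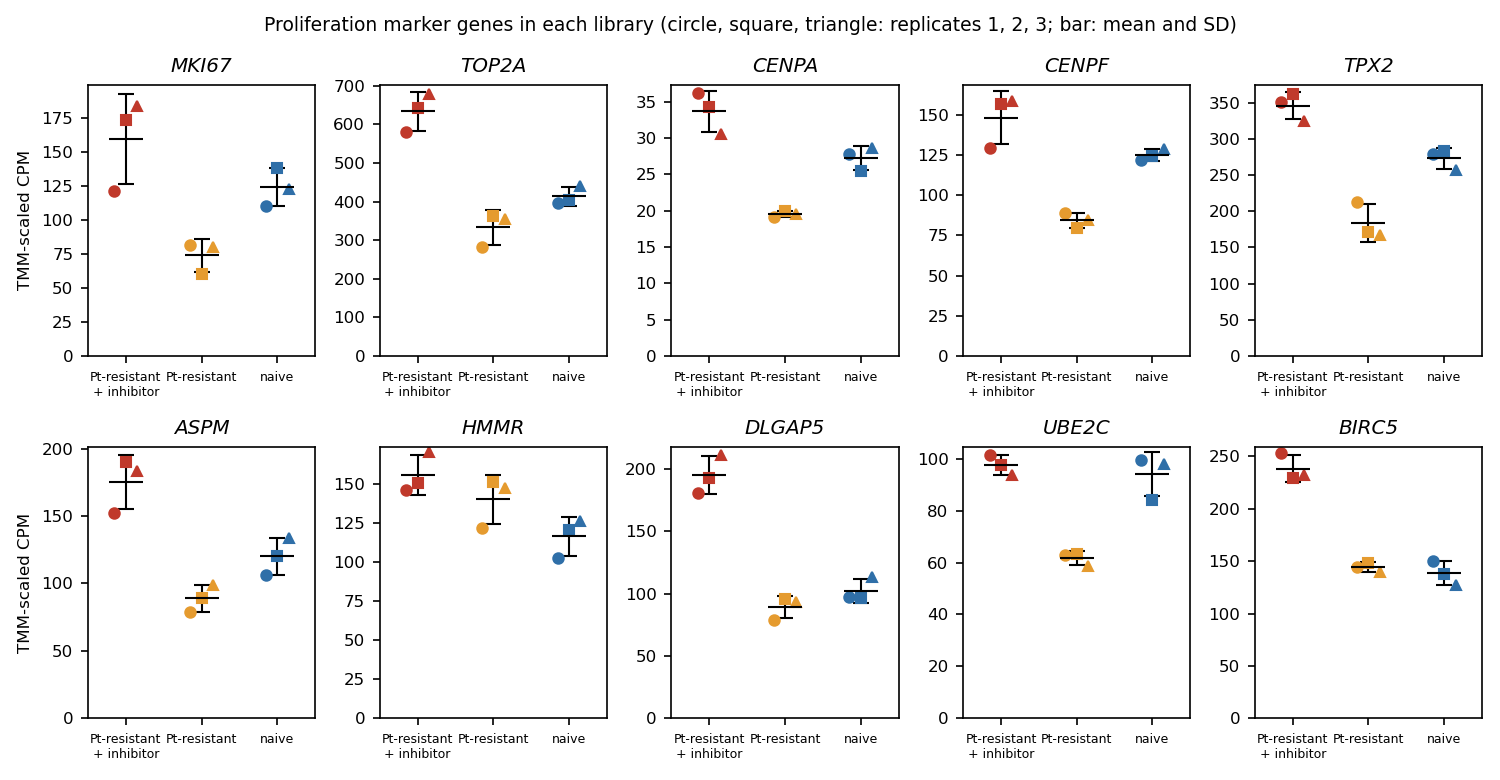
TMM-scaled CPM of each of the 10 proliferation marker genes (vertical axis) in the 3 libraries of inhibitor-treated Pt-resistant, Pt-resistant and naive cells, with mean and SD. In 9 of the 10 genes the 3 inhibitor-treated libraries lie above all 3 Pt-resistant libraries, and in HMMR these groups overlap.

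Levels were set against each other only per kilobase of exon (GENCODE 29). In inhibitor-treated cells TOP2A (98.5 CPM per kb) and TPX2 (95.9) stood highest with overlapping libraries. UBE2C (75.8), BIRC5 (62.5), DLGAP5 (53.1) and HMMR (39.6) came next, each apart from its neighbours, and CENPA (17.0), ASPM (16.1), CENPF (12.7) and MKI67 (12.4) were lowest. MKI67 was also lowest in Pt-resistant cells, at 5.76 CPM per kb, apart from CENPF above it, and in naive cells, at 9.66 CPM per kb. In inhibitor-treated and in naive cells its libraries overlapped those of CENPF. TOP2A (51.8), TPX2 (51.0) and UBE2C (48.0) led in Pt-resistant cells with overlapping ranges, and in naive cells TPX2 (75.8) and UBE2C (73.0) stood above TOP2A (64.3), although the ranges of UBE2C and TOP2A overlapped. DLGAP5 and HMMR changed places: DLGAP5 was above HMMR in inhibitor-treated cells (53.1 against 39.6 CPM per kb), below it in Pt-resistant cells (24.4 against 35.6), and overlapped it in naive cells (27.9 against 29.6).

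The first question was whether the PRMT5 inhibitor changed these mRNAs in Pt-resistant cells. In inhibitor-treated against DMSO-treated Pt-resistant cells, 9 of the 10 genes were higher at an edgeR adjusted p under 0.05 and none was lower. Over all 14630 tested genes, 31.9% were higher and 30.5% lower in this comparison. DESeq2 and limma-voom also called 9 higher and 0 lower, and at an unadjusted edgeR p under 0.05 again 0 were lower. In the 9 genes the groups did not overlap, as in 66.5% of all tested genes. At a change of 2-fold or more, 2 were called higher (11.4% of tested genes) and 0 lower (6.51%). The median log2 fold change was 0.86 over the 10 genes and 0.01 over all tested genes. DLGAP5 and MKI67 had the highest fold changes, and HMMR, the gene that did not pass, the lowest. The second question was how the resistant line differed from its parent before any inhibitor: 7 of the 10 genes were lower in Pt-resistant than in naive cells and 1, HMMR, was higher, where 29.4% of tested genes were lower and 29.8% higher. The groups did not overlap in 8 of the 10 genes, against 62.5% of all tested genes, and at a change of 2-fold or more 0 were called higher (6.73% of tested genes) and 0 lower (9.13%). The median was -0.46 over the 10 genes and 0.01 over all tested genes. Both comparisons use the same Pt-resistant DMSO libraries, so a high or low value there enters both with opposite sign. The genes are described below by where their proteins act, each with its libraries in the 3 groups.

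On the chromosomes, MKI67 (ENSG00000148773.14) encodes Ki-67, which coats mitotic chromosomes and keeps them apart. It was at 121, 173 and 183 CPM in inhibitor-treated, 81.7, 59.9 and 79.8 CPM in Pt-resistant and 110.4, 138 and 123 CPM in naive libraries. Every inhibitor-treated library was above every Pt-resistant one, while the lowest inhibitor-treated library lay within the naive range. With the inhibitor it rose 2.16-fold (log2 1.11 ± 0.13 SE, edgeR adjusted p = 6.1e-08), and in Pt-resistant against naive cells it was lower (log2 -0.75 ± 0.13, edgeR adjusted p = 2.08e-05). TOP2A (ENSG00000131747.15) encodes topoisomerase II alpha, which untangles sister chromatids and is the target of etoposide and doxorubicin. It was at 580.1, 643 and 678 CPM in inhibitor-treated, 281, 364 and 355 CPM in Pt-resistant and 396, 405 and 441 CPM in naive libraries. The 3 groups did not overlap, although Pt-resistant replicate 1 was well below its fellows. TOP2A rose 1.90-fold with the inhibitor (log2 0.93 ± 0.09, edgeR adjusted p = 6.85e-09) and was lower in Pt-resistant than in naive cells (log2 -0.31 ± 0.09, edgeR adjusted p = 0.00516).

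At the centromere, CENPA (ENSG00000115163.15) encodes the histone H3 variant that marks the site of kinetochore assembly. It was the gene with the fewest counts, at 36.1, 34.3 and 30.6 CPM in inhibitor-treated, 19.2, 19.9 and 19.5 CPM in Pt-resistant and 27.8, 25.4 and 28.6 CPM in naive libraries. The groups did not overlap, and the Pt-resistant libraries lay close together. CENPA rose 1.72-fold with the inhibitor (log2 0.78 ± 0.09, edgeR adjusted p = 1.29e-07) and was lower in Pt-resistant than in naive cells (log2 -0.48 ± 0.10, edgeR adjusted p = 0.000123). In GENCODE 29, 138 of its exonic bases (7.0%) are shared with SLC35F6 on the same strand, and gene counting of this kind leaves out reads that fall in 2 genes. SLC35F6 ran the other way, with 1021 to 1146 counts in inhibitor-treated, 2072 to 2170 in Pt-resistant and 1017 to 1303 in naive libraries. CENPF (ENSG00000117724.14) encodes a large protein of the outer kinetochore that binds microtubules and dynein regulators. It was at 129, 157 and 158 CPM in inhibitor-treated, 89.0, 79.3 and 84.7 CPM in Pt-resistant and 122, 124 and 129 CPM in naive libraries. Pt-resistant cells were apart from both other groups, and inhibitor-treated replicate 1 was barely above the highest naive library. CENPF rose 1.76-fold with the inhibitor (log2 0.81 ± 0.08, edgeR adjusted p = 1.28e-08) and was lower in Pt-resistant than in naive cells (log2 -0.57 ± 0.08, edgeR adjusted p = 3.45e-06).

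On the spindle, TPX2 (ENSG00000088325.16) encodes the activator that brings Aurora A kinase to spindle microtubules. It was at 351, 361 and 325 CPM in inhibitor-treated, 213, 171 and 167 CPM in Pt-resistant and 279, 284 and 257 CPM in naive libraries, with no overlap between groups. TPX2 rose 1.88-fold with the inhibitor (log2 0.91 ± 0.09, edgeR adjusted p = 4.83e-09) and was lower in Pt-resistant than in naive cells (log2 -0.57 ± 0.09, edgeR adjusted p = 6.27e-06). ASPM (ENSG00000066279.19) encodes a spindle pole protein whose loss causes primary microcephaly. It was at 152, 190.3 and 183 CPM in inhibitor-treated, 78.9, 89.2 and 98.6 CPM in Pt-resistant and 106, 120.2 and 134 CPM in naive libraries. The groups did not overlap, and inhibitor-treated replicate 1 was again the lowest of its group. ASPM rose 1.97-fold with the inhibitor (log2 0.98 ± 0.10, edgeR adjusted p = 9.2e-09) and was lower in Pt-resistant than in naive cells (log2 -0.43 ± 0.10, edgeR adjusted p = 0.000608).

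DLGAP5 (ENSG00000126787.13) encodes HURP, which stabilizes the microtubules attached to kinetochores. It was at 181, 192 and 211 CPM in inhibitor-treated, 79.0, 95.7 and 93.3 CPM in Pt-resistant and 97.0, 96.5 and 114 CPM in naive libraries. The inhibitor-treated libraries stood far above both other groups, while the highest Pt-resistant library came within 1 CPM of the lowest naive library. DLGAP5 rose 2.18-fold with the inhibitor (log2 1.12 ± 0.09, edgeR adjusted p = 1.71e-10), and its difference between Pt-resistant and naive cells did not pass (log2 -0.20 ± 0.09, edgeR adjusted p = 0.0649). That difference passed under 4 alternatives: with total counts alone (edgeR adjusted p = 0.0332), with the replicate number as a block (0.0298), without Pt-resistant replicate 2 (0.0339) and without naive replicate 2 (0.0318).

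HMMR (ENSG00000072571.20) encodes a receptor for hyaluronan that in dividing cells sits on the spindle and interacts with TPX2. It was the exception among the 10. It was at 146, 151 and 170.4 CPM in inhibitor-treated, 122, 151 and 147 CPM in Pt-resistant and 103, 121 and 126 CPM in naive libraries. The inhibitor-treated and Pt-resistant libraries overlapped, as did the Pt-resistant and naive libraries, and only the inhibitor-treated and naive libraries were apart. The inhibitor difference did not pass (log2 0.15 ± 0.09, edgeR adjusted p = 0.154, 95% interval of the difference -0.03 to 0.33). In Pt-resistant against naive cells HMMR was higher (log2 0.27 ± 0.09, edgeR adjusted p = 0.017), alone among the 10 genes. This call was lost without Pt-resistant replicate 2 (edgeR adjusted p = 0.0913), without Pt-resistant replicate 3 (0.0791) or without naive replicate 1 (0.124). HMMR-AS1, an antisense gene that shares 113 exonic bases with HMMR in GENCODE 29, had 0 to 8 counts per library. The HMMR promoter printed above held TTTGAA and CCAAT, like those of the other genes matched.

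In the machinery that ends mitosis, UBE2C (ENSG00000175063.17) encodes the ubiquitin-conjugating enzyme that starts chains on substrates of the anaphase-promoting complex. It was at 101, 97.6 and 93.5 CPM in inhibitor-treated, 63.1, 63.4 and 58.7 CPM in Pt-resistant and 99.5, 84.2 and 98.1 CPM in naive libraries. The inhibitor-treated and naive libraries overlapped, and the Pt-resistant libraries lay below both. UBE2C rose 1.58-fold with the inhibitor (log2 0.66 ± 0.08, edgeR adjusted p = 2.1e-07) and was lower in Pt-resistant than in naive cells (log2 -0.61 ± 0.08, edgeR adjusted p = 8.45e-07). BIRC5 (ENSG00000089685.15) encodes survivin, a subunit of the chromosomal passenger complex that belongs to the inhibitor of apoptosis family. It was at 253, 229.6 and 232 CPM in inhibitor-treated, 145, 148 and 139 CPM in Pt-resistant and 151, 137 and 128 CPM in naive libraries. The inhibitor-treated libraries were apart from all others, and the Pt-resistant and naive libraries overlapped. BIRC5 rose 1.65-fold with the inhibitor (log2 0.73 ± 0.08, edgeR adjusted p = 2.66e-08), and its difference between Pt-resistant and naive cells did not pass (log2 0.06 ± 0.08, edgeR adjusted p = 0.552, 95% interval -0.10 to 0.21).

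**Figure D3:**
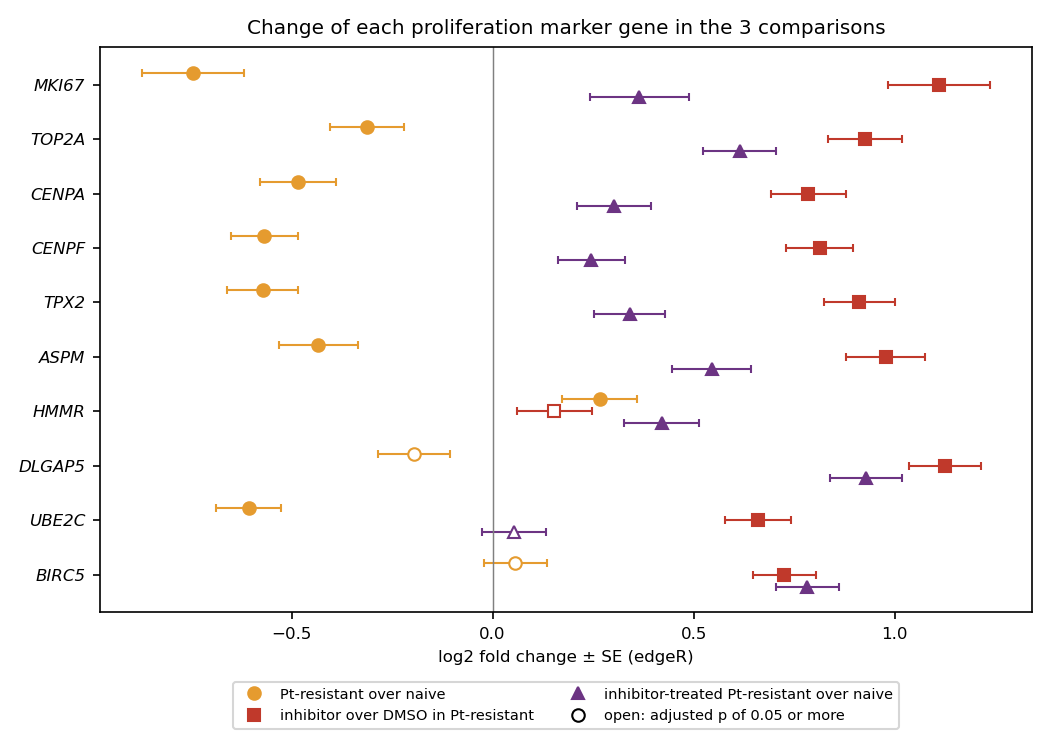
Log2 fold change ± SE (horizontal axis) of the 10 proliferation marker genes in 3 comparisons: Pt-resistant over naive (circles), inhibitor over DMSO in Pt-resistant cells (squares) and inhibitor-treated Pt-resistant over naive (triangles), with open symbols for an edgeR adjusted p of 0.05 or more. Squares lie between 0.15 for HMMR and 1.12 for DLGAP5, and circles between -0.75 for MKI67 and 0.27 for HMMR.

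The 10 genes also varied among the replicates of a group. In inhibitor-treated replicate 1 the 4 genes with over 6 kb of exon, MKI67, CENPF, ASPM and TOP2A, were all below their group mean, by 0.22 on the log2 scale on average, and the 2 genes under 2 kb, CENPA and UBE2C, were above it, by 0.08 on average. Over all tested genes with a known length the medians in this library were smaller and of the same signs: the median deviation was -0.04 over 5259 genes above 6 kb and 0.06 over 1906 genes below 2 kb. Across 14486 genes, which are not independent replicates, the rank correlation of deviation and exon length was -0.29 in inhibitor-treated replicate 1, 0.23 in inhibitor-treated replicate 2 and between -0.15 and 0.15 in the other 7 libraries. Between groups the same rank correlation of the fold change with length was only -0.03 for inhibitor against DMSO and -0.02 for Pt-resistant against naive. Without inhibitor-treated replicate 1, 9 of the 10 genes were again higher with the inhibitor.

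**Figure D4:**
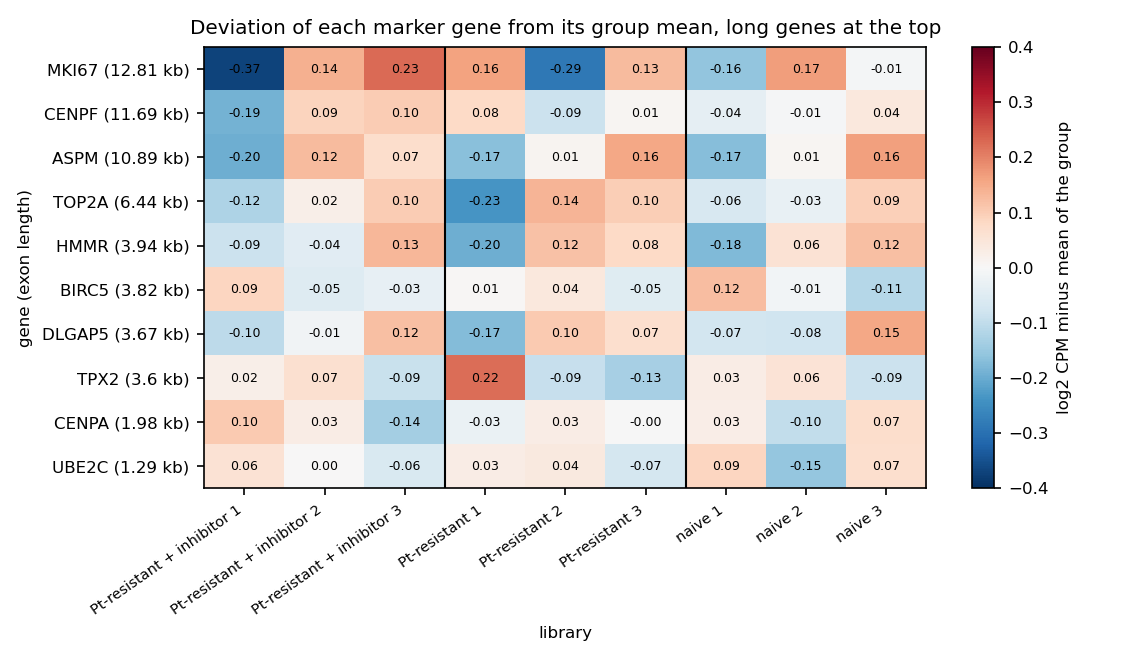
Deviation of the log2 CPM of each proliferation marker gene (rows, from the longest exon length at the top to the shortest) from the mean of its group, in the 9 libraries (columns). In inhibitor-treated replicate 1 the 4 longest genes are below their group mean, with MKI67 at -0.37, and CENPA (0.10) and UBE2C (0.06) are above it.

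The last comparison set inhibitor-treated Pt-resistant cells against naive cells, which differ in both the line and the treatment. Of the 10 genes 9 were higher and none lower, where 32.2% of tested genes were higher and 31.2% lower. None was lower at an unadjusted edgeR p under 0.05 either (0 of 10), and DESeq2 called 8 higher and limma-voom 9. The groups did not overlap in 8 of the 10 genes (66.4% of all tested genes), and at a change of 2-fold or more 0 were called higher (10.7% of tested genes) and 0 lower (9.15%). The median log2 fold change was 0.39 over the 10 genes and 0.00 over all tested genes. DLGAP5 (log2 0.93 ± 0.09, edgeR adjusted p = 3.17e-09), BIRC5 (0.78 ± 0.08, edgeR adjusted p = 6.76e-09) and TOP2A (0.61 ± 0.09, edgeR adjusted p = 3.01e-06) led. ASPM (0.54), HMMR (0.42), TPX2 (0.34) and CENPA (0.30) were also higher, with no overlap between the groups. MKI67 was called higher (log2 0.36 ± 0.12, edgeR adjusted p = 0.013), but its groups overlapped. That call was lost with DESeq2 (adjusted p = 0.129) and in edgeR without inhibitor-treated replicate 2 (adjusted p = 0.0648), inhibitor-treated replicate 3 (0.111) or naive replicate 1 (0.0776). CENPF was higher by a small margin (log2 0.25 ± 0.08, edgeR adjusted p = 0.0124), and its call was lost with total counts alone (0.054) and without inhibitor-treated replicate 2 (0.0617) or 3 (0.0738). UBE2C did not pass (log2 0.05 ± 0.08, edgeR adjusted p = 0.578, 95% interval -0.10 to 0.21). Naive libraries enter this comparison and the one of Pt-resistant against naive cells, and inhibitor-treated libraries this one and the inhibitor comparison.

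Direct protein partners of the markers were described from a list of 24 genes. With the inhibitor 16 rose and 2 fell, where 31.9% of all tested genes were higher and 30.5% lower. In Pt-resistant against naive cells 7 were higher and 11 lower, where 29.8% of all tested genes were higher and 29.4% lower. The 2 that fell became 1 with DESeq2 and without inhibitor-treated replicate 1, inhibitor-treated replicate 2 or Pt-resistant replicate 2. The lists overlap. AURKA, AURKB, INCENP, CDCA8, HJURP, BUB1 and CDC20 are counted again below among other G2/M and mitosis genes. CENPC, CENPN and CENPE are counted again among centromere protein genes. AURKA, the kinase that TPX2 activates, was at 138 ± 3.99 CPM in inhibitor-treated, 82.1 ± 5.46 CPM in Pt-resistant and 104 ± 1.10 CPM in naive cells. It rose with the inhibitor (log2 0.74 ± 0.07, edgeR adjusted p = 9.13e-09) and was lower in Pt-resistant than in naive cells (-0.34 ± 0.08, edgeR adjusted p = 0.000516). The 3 partners of survivin in the passenger complex, INCENP, AURKB and CDCA8, rose with the inhibitor (log2 1.50, 1.00 and 0.70) and were lower in Pt-resistant than in naive cells (log2 -0.96, -0.74 and -0.29), where BIRC5 itself did not pass. HJURP, the chaperone that loads CENPA, averaged 79.7 ± 4.73 CPM in inhibitor-treated, 39.9 ± 3.07 CPM in Pt-resistant and 38.6 ± 2.41 CPM in naive cells. It rose with the inhibitor (log2 1.00, edgeR adjusted p = 5.3e-10), and its difference between Pt-resistant and naive cells did not pass (0.05, edgeR adjusted p = 0.644). CDC20, a coactivator of the anaphase-promoting complex that UBE2C serves, was at 111 ± 7.10, 57.1 ± 2.42 and 123 ± 14.4 CPM in inhibitor-treated, Pt-resistant and naive cells. UBE2S, which lengthens the chains that UBE2C starts, did not pass in any comparison (log2 -0.07 with the inhibitor, -0.05 for Pt-resistant against naive). CD44, a hyaluronan receptor that associates with HMMR at the cell surface, was at 148 ± 3.34 CPM in inhibitor-treated, 26.6 ± 4.18 CPM in Pt-resistant and 9.33 ± 0.678 CPM in naive cells. It rose with the inhibitor (log2 2.48, edgeR adjusted p = 7.09e-16) and was higher in Pt-resistant than in naive cells (1.50, edgeR adjusted p = 5.42e-11).

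Paralogs and relatives of the markers made a list of 14 genes, of which 12 were tested. With the inhibitor 2 of the 12 rose and 4 fell (31.9% and 30.5% of all tested genes). In Pt-resistant against naive cells 8 were higher and 1 lower (29.8% and 29.4% of all tested genes). The count of 8 was 5 with DESeq2 or with no filter and 4 without naive replicate 2, and the 1 lower became 2 with DESeq2, with no filter, and without any 1 of the Pt-resistant libraries or naive replicate 3. With the inhibitor, the 2 that rose became 1 with total counts alone or without inhibitor-treated replicate 3. TOP2B, the topoisomerase II paralog of TOP2A, was at 252 ± 9.74, 237 ± 5.05 and 310.0 ± 3.33 CPM in inhibitor-treated, Pt-resistant and naive cells. Its difference with the inhibitor did not pass (log2 0.09 ± 0.07, edgeR adjusted p = 0.277), and it was lower in Pt-resistant than in naive cells (-0.39 ± 0.07, edgeR adjusted p = 5.19e-05). BIRC3, which encodes cIAP2 and is a target of NF-kB, was at 129 ± 4.07 CPM in inhibitor-treated, 6.99 ± 0.608 CPM in Pt-resistant and 4.14 ± 0.685 CPM in naive cells. It rose with the inhibitor (log2 4.20, edgeR adjusted p = 4.34e-19), more than BIRC5 or any other paralog listed, whereas XIAP, another member of that family, fell (-0.37, edgeR adjusted p = 0.000148). The genes H3-3A and H3-3B encode the same histone H3.3 protein, and near-identical copies make their counts uncertain. H3-3B fell with the inhibitor (-0.48, edgeR adjusted p = 7.67e-06), and H3-3A did not pass (-0.31, edgeR adjusted p = 0.244).

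Transcription regulators of late cell cycle genes made a list of 22, of which 21 were tested. With the inhibitor 12 rose and 6 fell (31.9% and 30.5% of all tested genes). In Pt-resistant against naive cells 3 were higher and 11 lower (29.8% and 29.4% of all tested genes). MYBL2 was at 307, 317 and 311 CPM in inhibitor-treated, 116, 108 and 107 CPM in Pt-resistant and 286, 251 and 239 CPM in naive libraries. Its groups did not overlap, and it rose by a log2 of 1.50 ± 0.08 with the inhibitor (edgeR adjusted p = 1.85e-13) and was lower in Pt-resistant than in naive cells (-1.23 ± 0.08, edgeR adjusted p = 5.25e-12). FOXM1 was at 46.4, 50.8 and 51.1 CPM in inhibitor-treated, 32.3, 25.6 and 30.1 CPM in Pt-resistant and 54.4, 50.9 and 50.1 CPM in naive libraries. The inhibitor-treated and naive libraries overlapped and the Pt-resistant libraries lay below both (log2 0.75 with the inhibitor, edgeR adjusted p = 1.77e-07, and -0.82 for Pt-resistant against naive, edgeR adjusted p = 5.04e-08). E2F1 (log2 1.15), E2F7 (1.16) and E2F8 (1.47) rose with the inhibitor and were lower in Pt-resistant than in naive cells (-0.75, -0.44 and -1.04). E2F1 activates S phase genes, and E2F7 and E2F8 repress them. RBL2 encodes p130, the pocket protein of DREAM in resting cells. RBL2 averaged 31.9 ± 5.02 CPM in inhibitor-treated, 41.4 ± 3.12 CPM in Pt-resistant and 55.6 ± 2.60 CPM in naive cells, lowest with the inhibitor and highest in naive cells (log2 -0.38 with the inhibitor and -0.43 for Pt-resistant against naive). LIN54, which reads the CHR, rose slightly with the inhibitor (log2 0.32 ± 0.09, edgeR adjusted p = 0.00449), and its difference between Pt-resistant and naive cells did not pass (-0.13, edgeR adjusted p = 0.223). Of the NF-Y subunits, NFYA rose (0.24) and NFYB (-0.31) and NFYC (-0.54) fell with the inhibitor.

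Other genes of the same phases were counted to place the 10 markers. For these lists, here and in the next paragraph, the shares over all tested genes were as follows. With the inhibitor 31.9% were higher and 30.5% lower, and in Pt-resistant against naive cells 29.8% were higher and 29.4% lower. In inhibitor-treated against naive cells they were 32.2% and 31.2%. Of 53 other G2/M and mitosis genes 52 were tested, and NUSAP1, with 0 to 9 counts per library, was not. Whether the gene counting left out reads of NUSAP1 was not checked, so this is not a measure of its expression. With the inhibitor 51 of the 52 rose and none fell (0 also at an unadjusted edgeR p under 0.05, and with DESeq2 or limma-voom), with a median log2 fold change of 0.90, against 0.86 for the 10 markers and 0.01 for all tested genes. CDC25C, a phosphatase that activates CDK1, was the gene that did not pass (log2 0.11, edgeR adjusted p = 0.309). PIMREG (1.75), CCNF (1.53), ANLN (1.52) and INCENP (1.50) had the highest fold changes of the list, above those of all 10 markers. In Pt-resistant against naive cells 32 were lower and 3 higher, with a median of -0.33. KIF20A (-1.46), CCNF (-1.27), PIMREG (-1.21) and CDC20 (-1.11) were the lowest. The 3 genes called higher, as HMMR was, were CKS2 (0.40) and the kinetochore genes NUF2 (0.25) and NDC80 (0.22). Only 1 of the list was called higher without Pt-resistant replicate 2, Pt-resistant replicate 3 or naive replicate 1, and also when the fit held only the 2 groups compared. In inhibitor-treated against naive cells 43 were higher and 1, FAM83D, lower (-0.26, edgeR adjusted p = 0.0088), with a median of 0.54. The count of lower genes was 0 without inhibitor-treated replicate 3, 2 without inhibitor-treated replicate 2 or naive replicate 2, and 3 with total counts alone.

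Of 17 centromere protein genes other than CENPA and CENPF, 12 rose and 1 fell with the inhibitor, with a median log2 fold change of 0.75. CENPI (1.27), CENPK (1.06), CENPW (0.98) and CENPH (0.95) rose most, and CENPT fell (-1.03, edgeR adjusted p = 4.34e-06). In the resistant line against naive cells, 8 of the 17 were lower and none higher (0 at an unadjusted edgeR p under 0.05, 0 with DESeq2 or limma-voom, and 1 without Pt-resistant replicate 1 or naive replicate 2), with CENPI (-1.07), CENPO (-1.04) and CENPH (-1.03) lowest, and without Pt-resistant replicate 3 the count was 5. Of 41 G1/S and replication genes, 35 rose and 1, CDK4, fell with the inhibitor (median 0.80), led by POLE2 (1.72), CCNE2 (1.48), GINS1 (1.47) and RRM1 (1.40). In Pt-resistant against naive cells, 31 replication genes were lower and 2 higher (median -0.42), with POLE (-1.17), POLD1 (-1.15), CDT1 (-1.09) and GINS1 (-1.08) lowest. The 2 higher were CDC6 (0.55), a licensing factor, and RFC4 (0.19), a clamp loader subunit, and only 1 of them was called under 10 of the alternatives that kept the threshold. In inhibitor-treated against naive cells 22 were higher and 8 lower. Of 17 genes linked to cell cycle exit, 8 were higher and 4 lower with the inhibitor (31.9% and 30.5% of all tested genes). In Pt-resistant against naive cells 7 were higher and 4 lower (29.8% and 29.4% of all tested genes). In inhibitor-treated against naive cells 13 were higher and 2 lower (median 0.55), against 32.2% and 31.2% of all tested genes. CDKN2B, which encodes the CDK4 and CDK6 inhibitor p15, was at 73.6 ± 4.93 CPM in inhibitor-treated, 195 ± 31.9 CPM in Pt-resistant and 39.4 ± 11.8 CPM in naive cells. In 2 comparisons CDKN2B ran opposite to most of the marker genes. It was lower with the inhibitor (log2 -1.41, edgeR adjusted p = 2.87e-09) and higher in Pt-resistant than in naive cells (2.31, edgeR adjusted p = 1.32e-12). In the third it did not: its inhibitor-treated libraries (70.0 to 79.2 CPM) lay above the naive ones (30.9 to 52.9 CPM), as for most marker genes. CDKN1A, which encodes p21, was higher in Pt-resistant than in naive cells (0.80, edgeR adjusted p = 3.64e-08), and its difference with the inhibitor did not pass (-0.12, edgeR adjusted p = 0.207). Other genes of the list ran differently. TXNIP had the order of the summed marker genes, at 47.7 ± 2.83 CPM in inhibitor-treated, 17.6 ± 2.05 CPM in Pt-resistant and 30.7 ± 5.81 CPM in naive cells. GAS1 had the lowest log2 fold change of the list in Pt-resistant against naive cells (-3.70), and averaged 2.42, 1.80 and 23.8 CPM in the same groups. Of the 13 mitochondrially encoded mRNAs 10 rose and none fell with the inhibitor (0 also at an unadjusted edgeR p under 0.05, and with DESeq2 or limma-voom), and 1 was higher and 10 were lower in Pt-resistant than in naive cells. The 1 called higher became 0 with total counts alone, with DESeq2, with only the groups compared, and without Pt-resistant replicate 1, naive replicate 2 or naive replicate 3, and 2 without naive replicate 1. Their part in the results for the marker genes was not tested.

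**Figure D5:**
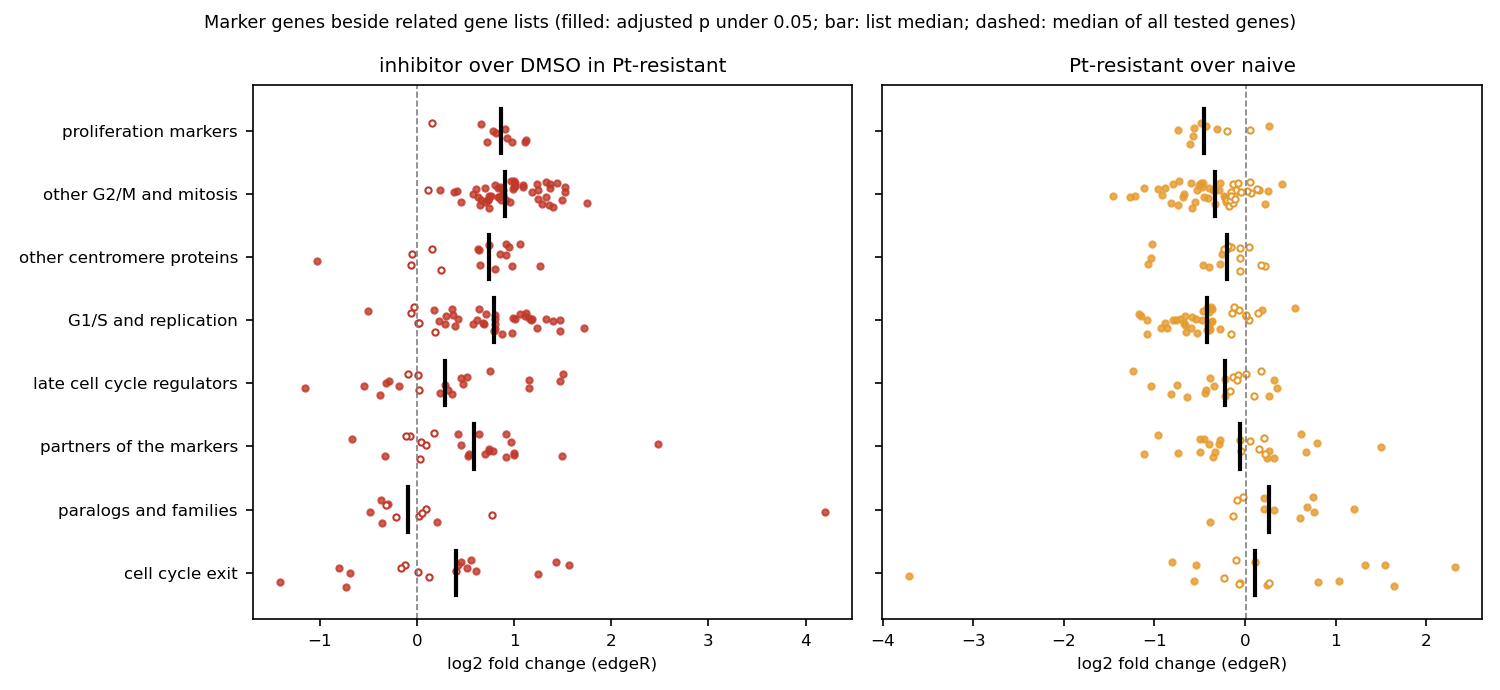
Log2 fold change (horizontal axis) of every tested gene of the proliferation markers and 7 related lists, for inhibitor over DMSO in Pt-resistant cells on the left and Pt-resistant over naive on the right, with filled points for an edgeR adjusted p under 0.05 and a bar at the list median. The bars of the proliferation markers stand at 0.86 and -0.46, near those of the other G2/M and mitosis genes at 0.90 and -0.33.

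To ask how alike the 10 genes were, the log2 CPM of each was standardised over the 9 libraries and set against the mean of the other 9 genes. The correlation was 0.97 for ASPM and TOP2A, 0.95 for DLGAP5, 0.92 for CENPA, 0.91 for CENPF, 0.88 for TPX2, 0.86 for MKI67, 0.79 for BIRC5, 0.78 for UBE2C and 0.32 for HMMR. These values describe 9 libraries in 3 groups that share their depth and scaling, so they follow mostly the group means. Outside the 10, the genes most like their mean over the 9 libraries were KIF14 (r = 0.995), GLIPR1 (0.995), KNL1 (0.994), EHF (0.993) and POLE2 (0.993). KIF14, a mitotic kinesin, was at 61.4 ± 6.77 CPM in inhibitor-treated, 25.8 ± 1.49 CPM in Pt-resistant and 36.6 ± 0.787 CPM in naive cells. EHF, an ETS family transcription factor of epithelia, was at 33.7 ± 3.2, 6.01 ± 0.69 and 12.7 ± 2.6 CPM in the same groups.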

How the data were processed

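After FastQC, the authors ran STAR in gene counting mode and deposited whole-number raw counts per gene. Libraries came from a directional NEBNext kit, from wells seeded in triplicate, so p-values measure the spread between these wells, which may be technical. The build, annotation and strand column of these counts (not given in the sources used here) could not be checked. Reads with several mapping places, and reads in more than 1 gene, go uncounted by STAR.

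Genes passing filterByExpr (minimum count 10) in R 4.3.3 with edgeR 4.0.16 numbered 14630 and held 99.88% of counts. Libraries were TMM-scaled, and 1 quasi-likelihood fit over 9 libraries without covariates gave 3 comparisons, adjusted by Benjamini-Hochberg at 0.05. The study used DESeq2, an alternative here (1.42.0) beside limma-voom (3.58.1), other scalings and filters, left-out libraries, a 2-fold minimum and a replicate block. SE is the log2 fold change over the root of F, and intervals of differences are normal at 95%. Both the totals of 14320929 to 19114811 counts and the spread between wells enter the precision. Scripts were tested on simulated data.

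Symbols matched 61369 of 61487 IDs by stable Ensembl ID. Exon lengths and overlaps came from GENCODE 29, promoters from RefSeq. All 10 markers were named. Other genes named were drawn from the 4 with the largest called changes per list and direction, and from the regulators, partners and paralogs. The 5 genes of most like pattern (at least 5 CPM) were named too. Not every gene that met these rules is named. SLC35F6, HMMR-AS1, CDKN1A, the genes at the edge of a count and the marker genes for cell types were added for their bearing on a result. Members and lists were chosen with earlier results of these data known. Part of the immune marker list is not reported here.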

Additional observations from a re-analysis of the deposited data

How the results depend on the processing

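Each fold change of the 10 marker genes was recomputed under 15 alternatives per comparison. Leaving aside the 2-fold minimum, 404 of 420 values kept their direction and their side of the threshold, 10 lost the call, 4 gained it (DLGAP5, Pt-resistant against naive) and 2 turned round. The 2 were UBE2C in inhibitor-treated against naive cells, at a log2 of -0.007 with total counts alone and -0.024 without naive replicate 2. The highest UBE2C value with one library left out kept its direction, at 0.093 without naive replicate 1. None of these UBE2C values was past the threshold. With one library left out at a time, the markers called in Pt-resistant against naive cells numbered 0 to 1 higher and 7 to 8 lower, those called with the inhibitor 9 in every case, and those higher in inhibitor-treated than naive cells 7 to 9. With a 2-fold change also required, 2 markers (MKI67 and DLGAP5) were higher with the inhibitor, 0 were higher and 0 lower in Pt-resistant against naive cells, and 0 were higher in inhibitor-treated against naive cells. Over all genes this requirement left 1673 higher and 952 lower with the inhibitor, 985 higher and 1335 lower in Pt-resistant against naive cells, and 1564 higher and 1339 lower in inhibitor-treated against naive cells. Replicate numbers did not pair the libraries: deviations of same-numbered libraries correlated between -0.08 and 0.10. With the replicate number as a block, 8 markers were lower and 1 higher in Pt-resistant against naive cells, and 9 were higher in each of the other comparisons. The scalings moved the median of all genes by less than 0.1 on the log2 scale. The inhibitor call of HMMR was missed under all alternatives run, and the cause of the calls that were lost was not tested.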
